A study of Mus musculus with 4 samples.

Results

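The Spi1 locus and its upstream elements were examined in single-cell ATAC-seq of long-term hematopoietic stem cells (LT-HSCs) from aged mice. Every peak was taken that overlapped the Spi1 gene body of the GRCm38 annotation (ENSMUSG00000002111.8, chromosome 2, 91082390 to 91115756, plus strand) or the 25000 bp upstream of it, from 91057390. These were 13 of the 93513 named peaks. The LT-HSCs came from C57BL/6JRj mice of 22-28 months and had been sorted with a Clca3a1 antibody into CLCA3A1high and CLCA3A1low cells, with 10000 sorted cells per sample pooled from 4 mice. All cells therefore shared strain, age range and LT-HSC gate but not the CLCA3A1 gate, each group was 1 pool, and no group had a replicate. The series also holds young (3-4 months) and old LT-HSCs not split by CLCA3A1. Its other table has rows without peak names and was not analysed here. The table of the Clca3a1 sort held 1454 cells, 818 with barcode suffix 1 and 636 with suffix 2. No label ties a suffix to a sample, so the values below are given for barcode set 1 and barcode set 2, and none of them is a comparison of CLCA3A1high with CLCA3A1low. The sets shared 0 barcode sequences.

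Spi1 encodes PU.1, an ETS-family transcription factor that binds GA-rich sites with a GGAA core and is needed for stem cell maintenance and for myeloid and B cell differentiation. Its level is known to be set by a promoter and by an upstream regulatory element about 14 kb away, which carries sites for PU.1 itself and for RUNX1. Satb1, Gata factors and C/EBP proteins also act on the locus. ATAC-seq inserts adapters where DNA is accessible, and a peak is called open in a cell below when it had at least 1 insertion count there.

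Positions are given as the distance of the centre of a peak from the start of the main protein-coding transcript of Spi1, at 91096096. The annotated gene begins 13.7 kb before it, with an alternative transcript. The peak at -12.7 kb (chr2:91081865-91084976, 3112 bp) ran from 14.2 to 11.1 kb upstream, covered exon 1 of the alternative transcript and lay at the distance of the known upstream element. It was thus at the same time an upstream element of the main transcript and the start of an alternative one. The peak at +1.4 kb (chr2:91096325-91098573, 2249 bp) covered 669 bp of exon 1 of the main transcript and is called the promoter peak. Between them lay the peaks at -9.6 kb (chr2:91086254-91086768) and -8.5 kb (chr2:91087369-91087868), both in intron 1 of the alternative transcript, and farther upstream those at -15.0 kb (chr2:91080760-91081357) and -17.6 kb (chr2:91077825-91079133), both intergenic. The peak at +5.5 kb (chr2:91101322-91101875) lay in intron 2 of the main transcript. The remaining peaks were 1 inside Spi1 at +17.5 kb, 4 over the neighbours Psmc3 and Slc39a13 at -34.8, -33.3, -30.3 and -28.9 kb, and the promoter peak of Slc39a13 at -26.1 kb.

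The plus-strand sequences below, from GRCm38 and 300 bases each, are shown to compare the -12.7 kb peak with smaller elements on either side of it. Capitals mark matches, on either strand, to the PU.1 word GAGGAAGT and its shorter form GAGGAA, and to the RUNX word TGTGGTT, the GATA word AGATAA and the TEAD word CATTCC. None of the 300 bases overlapped an annotated Spi1 exon.
-12.7 kb peak, before the first exon of the alternative transcript, chr2:91082070-91082369: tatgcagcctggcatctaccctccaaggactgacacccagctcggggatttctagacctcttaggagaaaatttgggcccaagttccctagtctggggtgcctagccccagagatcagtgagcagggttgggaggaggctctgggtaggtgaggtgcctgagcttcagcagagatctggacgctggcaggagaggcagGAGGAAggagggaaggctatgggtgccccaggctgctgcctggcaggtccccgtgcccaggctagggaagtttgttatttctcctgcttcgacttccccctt
-12.7 kb peak, further into it, chr2:91083521-91083820: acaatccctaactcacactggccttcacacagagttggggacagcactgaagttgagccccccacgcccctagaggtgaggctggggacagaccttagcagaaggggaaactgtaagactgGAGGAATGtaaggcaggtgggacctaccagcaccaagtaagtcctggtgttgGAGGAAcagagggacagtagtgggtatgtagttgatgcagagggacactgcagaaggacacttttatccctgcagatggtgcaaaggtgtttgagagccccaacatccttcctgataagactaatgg
-15.0 kb peak, centre, chr2:91080908-91081207: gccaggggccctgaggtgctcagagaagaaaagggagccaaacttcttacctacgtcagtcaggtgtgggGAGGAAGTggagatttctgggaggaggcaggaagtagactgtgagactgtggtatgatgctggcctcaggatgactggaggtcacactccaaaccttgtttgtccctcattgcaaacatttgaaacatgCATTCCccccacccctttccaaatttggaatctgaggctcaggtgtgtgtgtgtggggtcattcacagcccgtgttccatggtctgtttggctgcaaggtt
-9.6 kb peak, centre, chr2:91086361-91086660: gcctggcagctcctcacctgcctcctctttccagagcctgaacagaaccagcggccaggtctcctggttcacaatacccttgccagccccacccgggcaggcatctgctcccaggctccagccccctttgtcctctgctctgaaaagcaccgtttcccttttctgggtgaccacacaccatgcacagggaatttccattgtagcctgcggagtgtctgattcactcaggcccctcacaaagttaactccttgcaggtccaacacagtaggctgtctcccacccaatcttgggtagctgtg
-8.5 kb peak, centre, chr2:91087468-91087767: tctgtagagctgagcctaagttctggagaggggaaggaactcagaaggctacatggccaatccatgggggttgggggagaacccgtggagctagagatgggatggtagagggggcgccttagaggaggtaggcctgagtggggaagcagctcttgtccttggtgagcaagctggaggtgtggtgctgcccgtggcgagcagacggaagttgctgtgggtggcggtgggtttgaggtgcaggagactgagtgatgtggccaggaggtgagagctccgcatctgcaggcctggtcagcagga
+5.5 kb peak, left side, chr2:91101322-91101621: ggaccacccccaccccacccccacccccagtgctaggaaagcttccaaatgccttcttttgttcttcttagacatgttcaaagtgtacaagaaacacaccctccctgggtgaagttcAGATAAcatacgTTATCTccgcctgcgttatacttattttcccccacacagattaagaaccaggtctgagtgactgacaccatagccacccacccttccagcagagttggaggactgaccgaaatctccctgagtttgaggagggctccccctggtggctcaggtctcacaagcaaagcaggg
Over the whole -12.7 kb peak, GAGGAA matched at 4 places, CATTCC at 4 (1 of them overlapping a GAGGAA match), TGTGGTT at 1 and AGATAA at 1, whereas GAGGAAGT had 0 matches. The letters GAGGAA occurred in 95.9% of the 1317 peaks of like width (within 10%), so their presence there was ordinary, and CATTCC occurred in 76.6%. The full word GAGGAAGT was found in the window at 1 place, 15.1 kb upstream in the -15.0 kb peak, and in 11.2% of the 7584 peaks of that width. The -9.6 and -8.5 kb peaks held 0 matches to these words. The +5.5 kb peak held AGATAA at 2 places 12 bases apart, 1 on each strand. At least 1 match was found in 25.1% of the 8899 peaks of its width. Within the central 300 bases of all 93513 peaks, GAGGAAGT was found in 6.68%, GAGGAA in 36.1%, TGTGGTT in 11.0%, AGATAA in 12.9% and CATTCC in 14.1%. These matches are letters in a window and not evidence of binding.

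Depth was similar in both sets. Set 1 held 13050952 counts with a median of 13359 per cell, and set 2 held 9820094 with a median of 12755. Single cells ranged from 224 to 136173 counts. Of 10 LT-HSC marker loci, 9 had at least 20 counts. The exception, Ly6a, has no named peak and so no measurement. As many counts were also found at 4 of 4 erythroid and 4 of 4 megakaryocyte markers, and at 79625 of all 93513 peaks. Reaching 20 counts therefore does not set LT-HSC genes apart. Of 3 T cell genes, Cd4 was near 0 (0.383 CPM in set 1 and 0.204 in set 2, where CPM is counts scaled to the total of the set), and Cd3e and Cd8a have no named peak.

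**Figure D1:**
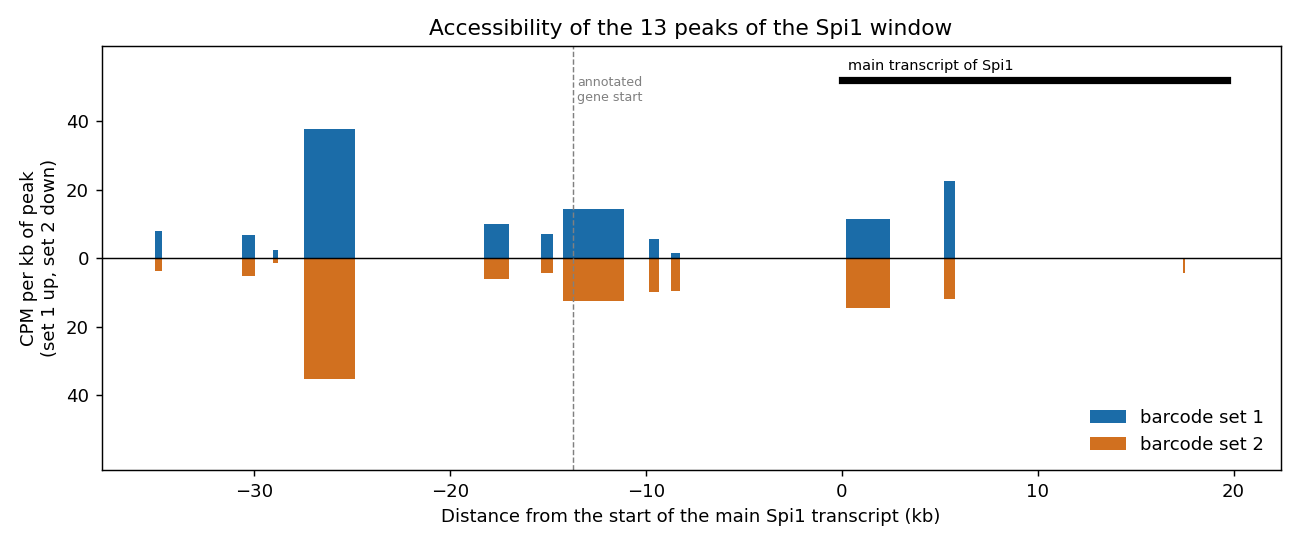
Accessibility of the 13 peaks against the distance in kb from the start of the main Spi1 transcript. Bars are as wide as the peaks and as high as their CPM per kb, with set 1 drawn upwards and set 2 downwards. The promoter peak of Slc39a13 at -26.1 kb was the highest bar in both sets, and within Spi1 the +5.5 kb bar was taller in set 1 and the -8.5 kb bar in set 2.

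The window was dominated by elements that serve different genes. The promoter peak of Slc39a13, a zinc transporter gene, supplied 47.2% of all counts of the window, with 2211 counts, at 99.3 CPM in set 1 (95% Poisson interval 94.0 to 105) and 93.2 in set 2 (87.2 to 99.4). Leaving it out, the -12.7 kb peak held 39.1% of the remaining counts and the promoter peak 26.4%. The -12.7 kb peak was open in 27.4% of set 1 cells (224 of 818, Clopper-Pearson interval 24.4 to 30.6) and in 23.6% of set 2 cells (150 of 636, 20.3 to 27.1). This was more than in 99.1% of all peaks that hold no promoter, and, since it also covers an alternative start, more than in 74.1% of promoter peaks. The promoter peak was open in 16.4% of set 1 cells (134 cells, 13.9 to 19.1) and in 20.3% of set 2 cells (129 cells, 17.2 to 23.6), and 56.3% of all promoter peaks were open in fewer cells. Per kb of peak, over all cells, the order was the Slc39a13 promoter (36.7 CPM per kb), the +5.5 kb peak (17.9), the -12.7 kb peak (13.6) and the Spi1 promoter peak (12.7). Intervals here and below cover counting error only, and they are too narrow for summed counts because the 2 cut sites of a fragment are usually counted together. Across the table, 88.7% of the values above 0 were even. For most single peaks of the window, ratios are therefore also given with each peak counted 1 time per cell. Among sums and folds this is done only for all upstream peaks over the promoter. Intervals of neighbours and gene lists use summed counts only and are too narrow.

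Of the 13 peaks, 10 had at least 20 counts. The other 3 were the -28.9 kb peak with 12 counts, the 6 bp wide -33.3 kb peak with 0, and the +17.5 kb peak with 0 counts in set 1 and 4 in set 2. The intervals of a count of 0 in set 1 reach 0.283 CPM and 0.450% of cells.

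The summed locus was nearly the same in both barcode sets, but its elements were not. The whole window had 210.6 CPM (202.8 to 218.6) for set 1. For set 2 the value was 197.1 CPM (188.5 to 206.1), and the log2 ratio was 0.09 with an interval of 0.01 to 0.18. Without the Slc39a13 promoter it was 111.3 and 104.0 CPM, with a log2 ratio of 0.10 and an interval of -0.02 to 0.21 that includes 0. From the start of the main transcript onwards the sign of the sum turned, to -0.06. A log2 ratio of at least 0.5 in size was found at 6 of the 10 peaks, 4 with more accessibility in set 1 and 2 with more in set 2. Over all 79625 peaks with at least 20 counts, 36.3% reached this size, 18.3% towards set 1 and 18.0% towards set 2, so differences of this size were common outside Spi1 as well.

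The promoter peak lay towards set 2. It had 25.6 CPM in set 1 (334 counts, 22.9 to 28.5) and 32.6 in set 2 (320 counts, 29.1 to 36.4). The log2 ratio was -0.34, with an interval of -0.57 to -0.12, and -0.37 (-0.73 to -0.01) with the peak counted 1 time per cell. The difference was under the size of 0.5, and 24.8% of all tested peaks lay farther towards set 2.

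The -8.5 and -9.6 kb peaks, between the alternative start and the promoter, lay in the same direction as the promoter. The -8.5 kb peak had 9 counts in 6 cells of set 1 (0.690 CPM, 0.315 to 1.31) and 47 counts in 21 cells of set 2 (4.79 CPM, 3.52 to 6.36). Its log2 ratio was -1.78 with a pseudocount of 1 CPM and -2.80 (-4.01 to -1.75) without, and counted 1 time per cell it was -2.23 (-3.83 to -0.88). A lower ratio was found at 1.13% of tested peaks. The -9.6 kb peak had 38 counts in 18 cells of set 1 (2.91 CPM) and 50 counts in 26 cells of set 2 (5.09 CPM). Its log2 ratio was -0.64 with the pseudocount, and -0.96 (-1.91 to -0.04) counted 1 time per cell. Without the 57 cells over 3 times the median count it was -0.37, under the size of 0.5. Both peaks were sparse. At equal depth (4899 counts per cell) the -8.5 kb peak was open in 0.668% of set 1 cells (0.217 to 1.55) and 1.79% of set 2 cells (0.860 to 3.26), which overlap, against 0.733% and 3.30% at full depth. The -9.6 kb peak was then open in 1.34% and 1.43%, so its difference was not detectable.

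The elements on either side lay towards set 1. The +5.5 kb peak in intron 2 had 12.4 CPM in set 1 (162 counts, 10.6 to 14.5) and 6.62 in set 2 (65 counts, 5.11 to 8.44), and it was open in 9.78% of set 1 cells (from 7.83% to 12.02%) and 4.87% of set 2 cells (3.34 to 6.85). Its log2 ratio was 0.82 with the pseudocount, 0.91 (0.48 to 1.35) without it, and 0.94 (0.33 to 1.59) counted 1 time per cell. It was the peak of the window with the clearest difference towards set 1, and 91.6% of tested peaks had a lower ratio. The -17.6 kb peak had 12.9 CPM in set 1 (168 counts) and 8.15 in set 2 (80 counts), with a log2 ratio of 0.60 and, counted 1 time per cell over cells of unequal depth, 0.59 (0.01 to 1.19). The -15.0 kb peak, which holds the full PU.1 word, had 4.21 CPM (55 counts) and 2.55 CPM (25 counts). Its log2 ratio was 0.56, and the interval counted 1 time per cell, -0.37 to 1.57, included 0. Over the neighbouring genes, the -34.8 kb peak in the body of Psmc3 had 36 counts in set 1 (2.76 CPM) and 13 in set 2 (1.32 CPM), with a log2 ratio of 0.69 and an interval of -0.44 to 2.22 counted 1 time per cell. The -30.3 kb peak had 55 counts (4.21 CPM) and 33 counts (3.36 CPM), with a log2 ratio of 0.26.

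The -12.7 kb peak, the largest element of Spi1, differed little. It had 45.0 CPM in set 1 (587 counts, 41.4 to 48.8) and 38.7 in set 2 (380 counts, 34.9 to 42.8). The log2 ratio was 0.21 (0.03 to 0.41 without the pseudocount), and counted 1 time per cell it was 0.15 with an interval of -0.15 to 0.46 that includes 0. Counting every cut site, the interval excluded 0 at 5 peaks towards set 1 and 3 towards set 2. Counted 1 time per cell it did so at 2 peaks towards set 1, at -17.6 and +5.5 kb, and at 3 towards set 2, at -9.6, -8.5 and +1.4 kb. These intervals use cells at their own depth, and the shares of open cells at equal depth are given below. How many of all tested peaks had such an interval was not computed, so these counts cannot be called unusual.

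**Figure D2:**
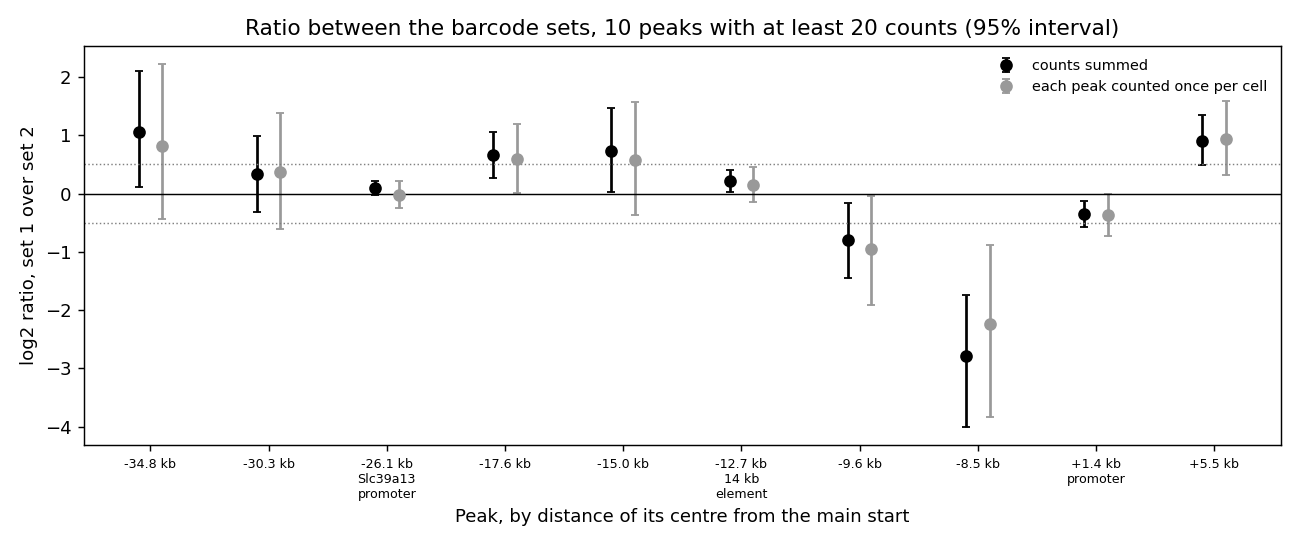
Log2 ratio of set 1 over set 2, without a pseudocount, for the 10 peaks with at least 20 counts, from the farthest upstream on the left. Black points sum all counts, grey points count each peak 1 time per cell, bars are 95% intervals and dotted lines mark 0.5 in either direction. The -9.6, -8.5 and +1.4 kb peaks lie below 0 with both ways of counting, between the -17.6 and +5.5 kb peaks above 0.

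Set against the promoter, the upstream peaks therefore weighed more in set 1. All 9 upstream peaks together, without the Slc39a13 promoter, had 2.86 times the counts of the promoter peak in set 1 (2.52 to 3.25) and 1.98 times in set 2 (1.72 to 2.27). The ratio was 1.45-fold higher in set 1 (1.21 to 1.74), and 1.41-fold (1.06 to 1.87) with each peak counted 1 time per cell. Without the peaks over Psmc3 and Slc39a13 it was 1.41-fold, by summed counts. Such a fold was not computed at other genes, so it cannot be called unusual. The -12.7 kb peak alone gave 1.76 in set 1 and 1.19 in set 2, a fold of 1.48 (1.21 to 1.81). The pair at 8 to 10 kb upstream went the other way, at 0.141 of the promoter in set 1 and 0.303 in set 2, a fold of 0.464 (0.317 to 0.679). The +5.5 kb peak had 0.485 of the promoter counts in set 1 and 0.203 in set 2, a fold of 2.39 (1.72 to 3.31). Per kb, the upstream peaks were less accessible than the promoter in both sets, at 0.883 and 0.610 of its level, since they are together 7.287 kb wide and the promoter peak 2.249 kb.

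The share of open cells depended strongly on depth. With the cells cut into 4 groups of rising depth, from the shallowest to the deepest the promoter peak was open in 5.97% to 31.9% of set 1 cells and in 10.4% to 30.0% of set 2 cells. The -12.7 kb peak went from 14.4% to 48.5% and from 8.59% to 38.8%. Cells were therefore thinned to 4899 counts each, which left out 69 shallower cells of set 1 and 76 of set 2. At this depth the promoter peak was open in 8.41% of set 1 cells (6.52 to 10.6) and 12.9% of set 2 cells (10.2 to 15.9), and the -12.7 kb peak in 15.2% (12.7 to 18.0) and 13.9% (11.2 to 17.1). The +5.5 kb peak was open in 4.81% (3.39 to 6.59) and 2.32% (1.24 to 3.94). The direction at these 3 was that of the full counts, but the intervals of the sets overlapped at each of them. The other elements were sparser, and the -17.6 kb peak was open in 4.27% (2.94 to 5.98) and 3.75% (2.34 to 5.68), so its difference was not detectable at equal depth. The -30.3 kb peak was open in 0.668% and 0.714%. No peak of the window other than that of the Slc39a13 promoter was open in 68.5% of thinned set 1 cells and 65.7% of set 2 cells, so most cells carried no insertion from Spi1 at this depth.

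**Figure D3:**
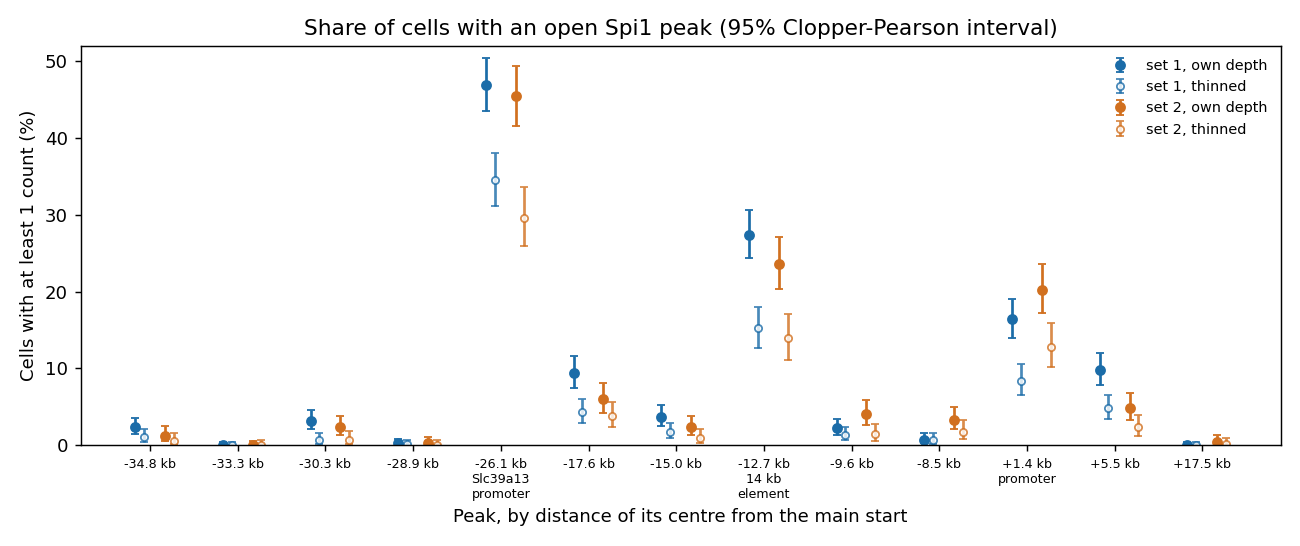
Share of cells with at least 1 count at each of the 13 peaks, in percent, for both barcode sets, with 95% Clopper-Pearson intervals. Filled points are cells at their own depth and open points the same peaks after thinning to 4899 counts per cell. Thinning lowers the shares, and the promoter peak stays higher in set 2 and the +5.5 kb peak higher in set 1, with overlapping intervals.

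**Figure D4:**
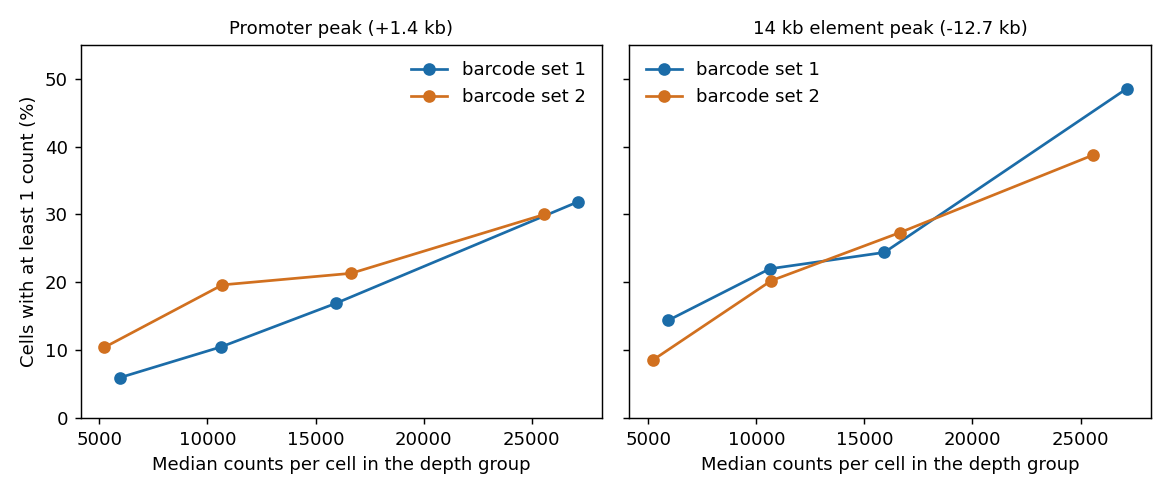
Share of cells with at least 1 count at the promoter peak (left) and at the -12.7 kb peak (right) against the median counts per cell of 4 groups of rising depth. Lines join the groups of a barcode set. In the 3 shallower groups the promoter peak was open in more cells of set 2, and in the deepest group the sets were 31.9% and 30.0%.

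Whether the promoter and the upstream element were open in the same cells was asked next. At 4899 counts per cell both were open in 8 of 749 set 1 cells, against 9.59 if the 2 were independent (ratio 0.834, 0.361 to 1.64). In set 2 both were open in 10 of 560 cells, against 10.0 (ratio 0.997, 0.480 to 1.82). At full depth the ratios were 1.36 (1.02 to 1.78) in set 1 and 1.38 (1.004 to 1.84) in set 2. Deep cells had more of either peak, and the part of depth in these ratios was not tested. The promoter and the +5.5 kb peak were open together in 7 thinned set 1 cells against 3.03 (ratio 2.31, 0.931 to 4.74), and in 1 set 2 cell against 1.67. All of these intervals at equal depth included 1, and an association of up to 1.82-fold between promoter and element was within counting error.

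Accessibility of peaks with the PU.1 word was set beside the state of Spi1 in the same cell. Outside the Spi1 window, peaks with GAGGAAGT held a median of 17.3% of the counts of a set 1 cell with an open promoter peak (quartiles 16.9 and 17.7, 63 cells) and 17.3% with a closed one (16.7 and 17.9, 686 cells). In set 2 these medians were 18.3% (72 cells) and 18.2% (488 cells). The corresponding medians for the -12.7 kb peak were 17.4% and 17.3% in set 1 and 18.2% and 18.2% in set 2. The largest difference in size between medians of open and closed cells, over the promoter, -12.7 kb and +5.5 kb peaks, was -0.282 percentage points, at the +5.5 kb peak in set 2 with 13 open cells. With the word sought in the central 300 bases it was 0.348 (promoter, set 2), and with GAGGAA 0.363 (-12.7 kb peak, set 1). No test was made of these differences. A closed peak at this depth mostly means that no fragment was sampled, so these cells cannot be called Spi1-inactive.

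Of the neighbours of Spi1, only Nr1h3 and Acp2 had a promoter peak with an interval that excluded 0. The promoter peak of Psmc3, a proteasome subunit gene, had a log2 ratio of 0.16 (-0.04 to 0.36), and that of Madd, downstream, -0.11 (-0.26 to 0.04). The promoter peaks of Nr1h3, which encodes the liver X receptor alpha, and Acp2, a lysosomal acid phosphatase gene, lay towards set 1 with 0.43 (0.17 to 0.74) and 0.39 (0.17 to 0.64). Rapsn and Mybpc3 had no promoter peak.

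Factors that bind or regulate Spi1 were measured at their own loci (gene body plus 5000 bp upstream). All 14 had at least 20 counts, with 1 locus past 0.5 towards set 1 and 2 towards set 2, and a median log2 ratio of -0.02. Of all 16965 gene loci with at least 20 counts, 6.10% were past 0.5 towards set 1 and 4.99% towards set 2, and their median was 0.00. The highest ratio was that of Gata1, an erythroid and megakaryocytic factor that antagonises PU.1, with 1.45 on a sparse 2.84 and 0.407 CPM. Gata2, a stem cell factor, followed with 0.29 (168.3 and 137.1 CPM) and Tal1, which acts with it, with 0.20 (112.3 and 97.4 CPM). The lowest was that of Satb1, a chromatin organiser known to act on the Spi1 upstream element, with -0.80 (51.5 and 90.1 CPM, -0.95 to -0.66). Ikzf1, encoding the lymphoid factor Ikaros, had -0.54 (106.1 and 155.1 CPM) and Cebpa, a myeloid factor, -0.33 (38.9 and 49.1 CPM). Runx1, whose product binds the upstream element, had 320.1 and 323.3 CPM with a log2 ratio of -0.01 (-0.08 to 0.05). Of the closest relatives of PU.1, Spib had 0.10 (-0.13 to 0.33) and Spic -0.36 (-0.99 to 0.12).

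Genes known as PU.1 targets lay mostly towards set 2. The peaks of Spi1 itself lay on both sides, with the promoter at -0.34 and the larger -12.7 kb peak at 0.21. Of 27 targets, 24 had at least 20 counts. Their median log2 ratio was -0.32, and 21 lay below 0, against 49.3% of all loci. Past 0.5 were 11 towards set 2 and 0 towards set 1, against the 4.99% and 6.10% over all loci. The lowest were Blnk, a B cell receptor adaptor, with -0.93 (16.6 and 32.5 CPM), the cytokine receptor gene Flt3 with -0.91 (76.1 and 144.3 CPM) and Ncf4, a subunit of the phagocyte oxidase, with -0.88 (23.4 and 43.8 CPM). The highest were Cd14, an endotoxin co-receptor, with 0.17 (16.2 and 14.4 CPM), the neutrophil elastase gene Elane with 0.16 (41.8 and 37.2 CPM) and Csf2ra, a GM-CSF receptor subunit, with 0.05 (140.5 and 135.8 CPM), and all 3 intervals included 0. Marker loci of cell types also differed between the sets. Flt3, Cd34 and Cd48, markers of multipotent progenitors, of which the LT-HSC gate used CD34 and the FLT3 protein (CD135) to leave out positive cells, had a summed 111.8 CPM in set 1 and 203.3 in set 2, with 2 of 3 past 0.5 towards set 2. LT-HSC markers had 885.8 and 762.6 CPM, with 4 of 9 past 0.5 towards set 1 and 0 towards set 2. They did not share 1 direction, since Fgd5 had -0.32 (-0.49 to -0.17) and Hoxa9 -0.04. Mecom alone held 392.1 and 332.4 CPM of these sums. The 5 granulocyte and monocyte markers had 114.7 and 127.5 CPM, with 1 of 4 past 0.5 towards set 2, and Ly6g has no named peak. The 4 erythroid markers had 88.0 and 72.3 CPM, with 1 past 0.5 in each direction, and the 4 megakaryocyte markers 343.3 and 315.0 CPM with 0 past it. By promoter peaks alone, 1 of these 4 megakaryocyte markers was past 0.5 towards set 1 and 0 towards set 2. The marker lists also hold 4 of the 24 targets, and among the 20 others 9 were past 0.5 towards set 2. The part of a different mixture of cells in the target values or in those of the Spi1 promoter was not tested.

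**Figure D5:**
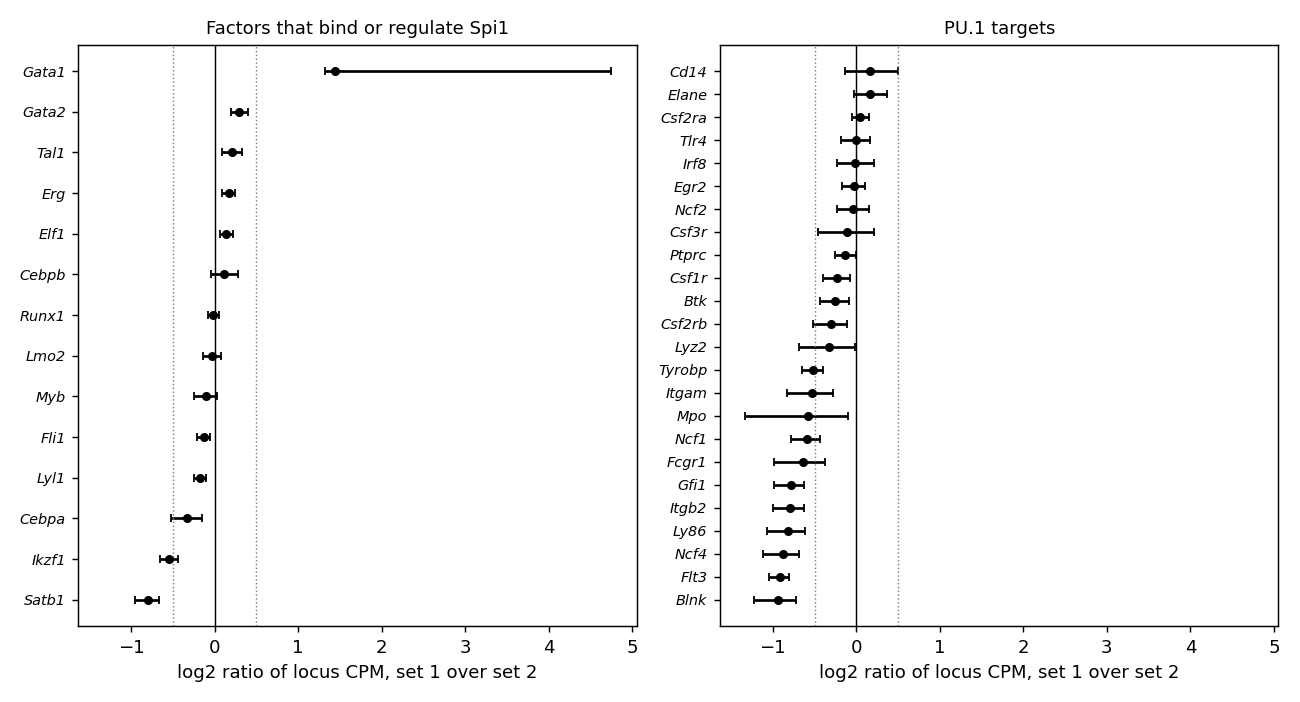
Log2 ratio of locus CPM, set 1 over set 2, for 14 factors that bind or regulate Spi1 (left) and 24 PU.1 targets (right), with 95% counting intervals. Points use a pseudocount of 1 CPM and intervals none, and dotted lines mark 0.5 in either direction. The factors lie on both sides of 0, whereas 21 of 24 targets lie below it, against 49.3% of all loci.

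The genes whose accessibility was most like that of the Spi1 window across thinned cells were Bdh1, Vegfa, Pdhb, Dennd1a and Ptbp3, with mean Spearman coefficients over the 2 sets of 0.108 to 0.103 among 11567 genes. These cells share a library and a depth, the coefficients are weak, and the 95th percentile over all genes was 0.0461. Without the Slc39a13 promoter in the window, the 5 genes were Pigu, Ptbp3, Vegfa, Tnfaip2 and Plcb4. With promoter peaks only they were Pam, Katnal2, Acaa1a, Myd88 and Top3b, and no result here rests on these names.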

How the data were processed

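The labels give 10x Genomics scATAC-seq (v1.1) processed by the authors with Cell Ranger ATAC 1.2.0 on mm10 (GRCm38), with 1 peak list for both samples. The deposited table holds cut-site counts per peak and cell, with no normalization. Whether depth was equalised between the samples is not given in the sources used here.

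Peaks were annotated with GENCODE M21 and RefSeq (GRCm38.p6), and 0 peaks ran past the end of their chromosome. Counts were summed per barcode set and scaled to CPM of the set. A promoter peak lay within 1000 bp of a coding transcript start, for Spi1 that of the main transcript, and upstream peaks were those before it that are no promoter of another gene. Log2 ratios used a pseudocount of 1 CPM, and 20 counts were required. Intervals (95%) were Poisson for CPM, Clopper-Pearson for shares, conditional binomial for ratios and log-normal for the fold between sets. They refer to ratios without the pseudocount. For equal depth, each cell was drawn down at random, 1 time, to the count at the 10th percentile of cells. With 1 pool per group and no label that maps cells to samples, no test was made and no p-value is given. Of the other table, without peak names, nothing was used. Ratios and intervals were tested on simulated counts that were independent of each other. Cut sites here are usually counted in pairs, so that test cannot tell whether the intervals hold for these data.

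The window, gene lists and comparisons were chosen with earlier results of these data known. Every peak of the window is given. Of each list, the 3 highest and 3 lowest loci are named. Runx1, Fgd5, Hoxa9, Mecom and the marker genes without a peak are named in addition, after their values were seen. The neighbours are all genes starting within 100000 bp. The result of 1 marker list is not reported here. Likeness excluded genes within 500000 bp and those open in fewer than 10% of cells. Python 3.11.15, numpy 2.4.6, scipy 1.17.1, pandas 2.3.3 and pysam 0.24.0 were used.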

Additional observations from a re-analysis of the deposited data

How the results depend on the processing

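No paired analysis was possible because each group is 1 pool and no label maps cells to a group. Of 60 recomputed ratios of single peaks, 59 kept their sign. The exception, the Slc39a13 promoter counted 1 time per cell, had an interval including 0 in either form. A change of the pseudocount cannot turn a sign and the size-factor scaling shifted all ratios alike, so part of these signs was fixed in advance. Thinning was not among these settings, and in thinned cells the -30.3 kb peak was open in 0.668% of set 1 and 0.714% of set 2. With a pseudocount of 5 CPM, 1 peak instead of 4 was past 0.5 towards set 1 and 1 instead of 2 towards set 2, and 1 towards set 2 also without the 57 cells over 3 times the median count, where the -9.6 kb peak had -0.37. The -8.5 kb peak, at -1.78 with the pseudocount, had -1.71 without those cells and -1.58 counted 1 time per cell, both with the pseudocount, and -0.78 with 5 CPM. Thinning lowered the open shares to 8.41% and 12.9% at the promoter and 15.2% and 13.9% at the -12.7 kb peak. The upstream to promoter ratio was 0.883 and 0.610 per kb, and 1.92 and 1.27 with the upstream part limited to 13000 to 16000 bp. Its fold between sets was 1.93 (1.36 to 2.75) in thinned cells, 1.66 with cells weighted equally, and 1.40 to 1.66 under the other settings, and the cause of this range was not tested. The summed window turned to -0.058 when taken from the start of the main transcript, which leaves out the upstream peaks. The size-factor scaling shifted all ratios by -0.02. The PU.1 target count past 0.5 towards set 2 was 8, instead of 11, counted 1 time per cell and also without the 57 cells. It was 11 in the other settings, and 0 towards set 1 in all 5. These settings were tried after seeing the data, as were the equal weighting and thinning of the ratio. Sparse peaks limit the precision: 56 counts at -8.5 kb and 88 at -9.6 kb.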
